A study of Mus musculus with 2 samples.

Results

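The CXC chemokines are small secreted proteins that share a cysteine motif and guide leukocytes along gradients. 8 of the 31053 genes in the count tables were chosen by symbol: Cxcl1, Cxcl2, Cxcl9, Cxcl10, Cxcl12, Cxcl13, Cxcl14 and Cxcl16. Their RNA was followed across cell types and across the diets in single-cell RNA sequencing of the mouse aortic arch. All mice were male C57BL/6 and Apoe-/-, 16 weeks old, so the loss of apolipoprotein E was common to both groups and neither group was a wild type. One group was given a normal diet (ND) and the other a high fat diet (HFD). The cells of 2 aortas were pooled into 1 library per diet, so animals cannot be told apart, and no test between the diets was possible.

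As background, CXC chemokines fall into groups by the receptor they engage. Cxcl1 and Cxcl2 draw neutrophils through Cxcr2, and are switched on rapidly by inflammatory or stress signals. Cxcl9 and Cxcl10 are interferon-induced and draw activated T cells and NK cells through Cxcr3. Cxcl12 is produced constitutively by stromal and endothelial cells and acts through Cxcr4, while Ackr3 scavenges it. Cxcl13 organises B cells through Cxcr5. Cxcl14 is a stromal chemokine whose receptor is less settled. Cxcl16 is made as a membrane protein of myeloid and endothelial cells, binds oxidised lipoprotein, engages Cxcr6, and is shed by Adam10 and Adam17.

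Cells were kept with at least 200 genes, at least 200 unique molecular identifiers (UMIs, which count RNA molecules) and at most 30% mitochondrial UMIs. This left 5416 ND cells of 10234 barcodes and 2739 HFD cells of 14225 barcodes. The numbers of cells stated with the deposit are equal to these. The kept cells held 27137322 ND UMIs and 17191279 HFD UMIs, with medians of 3732.5 and 5336 UMIs per cell and median mitochondrial shares of 16.8% and 21.9%. A kept cell entered a class when it held at least 2 different markers of that class and at least 3 UMIs of them. Subsets of a class needed 2 different markers of the subset: Stc1, Hey1 and Sema3g for arteriolar endothelial cells, Gpnmb, Trem2 and Spp1 for foam-type macrophages, Lyve1, Folr2, F13a1 and Cbr2 for resident macrophages, Pi16, Sema3c, Dpp4 and Cd55 for Pi16 fibroblasts, and Inmt, Gdf10 and Npnt for Inmt fibroblasts. Cells entering several classes were set aside as mixed, 718 in ND and 475 in HFD. The classes with at least 100 cells in each library were endothelial cells (2308 and 1184), fibroblasts (882 and 374) and macrophages (285 and 400). Mural cells, the main cells of the aortic media, numbered only 33 and 14, so the labelled aorta is represented mostly by other cells. The ND library also held 54 airway-type cells, and the HFD library none. The libraries shared 39 barcode sequences, 1 of them among kept cells. Free RNA differed: in endothelial cells haemoglobin Hbb-bs stood at 3379 CPM in ND and 22310 CPM in HFD, and the airway gene Scgb1a1 at 145 and 0.141 CPM. Levels are given as CPM, the UMIs of a gene as a proportion of all UMIs of the class scaled to 1e6, with an exact 95% Poisson interval, which covers counting error only. In summed counts over all kept cells, fewer cells of a type and less RNA per cell cannot be told apart.

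The 8 genes lie on 4 chromosomes (GRCm38, GENCODE vM21 annotation, all protein-coding). Cxcl1 (ENSMUSG00000029380) is at chr5:90891241-90893115 and Cxcl2 (ENSMUSG00000058427) at chr5:90903871-90905938, both on the + strand. Cxcl9 (ENSMUSG00000029417) is at chr5:92321347-92328079 and Cxcl10 (ENSMUSG00000034855) at chr5:92346638-92348889, both on the - strand. Cxcl13 (ENSMUSG00000023078) is on the same chromosome at chr5:95956951-95961068 (+). Cxcl12 (ENSMUSG00000061353) is at chr6:117168535-117181367 (+), Cxcl14 (ENSMUSG00000021508) at chr13:56288643-56296551 (-) and Cxcl16 (ENSMUSG00000018920) at chr11:70453983-70459984 (-).

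The sequences upstream of Cxcl1, Cxcl2, Cxcl9 and Cxcl10 are shown because these genes are best known for inducible transcription. They come from RefSeq (GRCm38.p6, the same assembly as the mm10 of the deposited counts). They run 5′ to 3′ from 250 to 31 bases before each RefSeq start. For Cxcl1 and Cxcl2 this start differs from the gene start given above. The table held 7 of the 8 genes, all but Cxcl16. Capitals mark matches to the NF-kB consensus or to the interferon-stimulated response element (GAAA, any 2 bases, GAAA), searched on both strands.
Cxcl1, chr5:90890995-90891214, + strand: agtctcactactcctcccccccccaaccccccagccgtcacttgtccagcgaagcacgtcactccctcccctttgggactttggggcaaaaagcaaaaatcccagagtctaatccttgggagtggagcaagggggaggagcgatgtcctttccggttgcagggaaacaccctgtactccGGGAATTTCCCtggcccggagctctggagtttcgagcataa
Cxcl2, chr5:90903649-90903868, + strand: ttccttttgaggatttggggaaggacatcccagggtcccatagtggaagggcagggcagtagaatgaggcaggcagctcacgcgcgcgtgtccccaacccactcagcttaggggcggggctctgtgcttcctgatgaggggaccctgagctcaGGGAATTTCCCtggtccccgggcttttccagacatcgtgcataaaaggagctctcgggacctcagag
Cxcl9, chr5:92328110-92328329, - strand: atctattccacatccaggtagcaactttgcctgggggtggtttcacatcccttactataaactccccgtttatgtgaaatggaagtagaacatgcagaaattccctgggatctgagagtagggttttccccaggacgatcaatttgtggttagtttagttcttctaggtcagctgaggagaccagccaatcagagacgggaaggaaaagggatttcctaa
Cxcl10, chr5:92348920-92349139, - strand: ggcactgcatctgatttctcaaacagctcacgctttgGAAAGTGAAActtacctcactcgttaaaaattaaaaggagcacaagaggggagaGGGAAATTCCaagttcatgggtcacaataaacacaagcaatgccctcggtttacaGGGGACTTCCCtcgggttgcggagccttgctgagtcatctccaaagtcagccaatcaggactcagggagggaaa
The marked stretch was the same in Cxcl1 and Cxcl2, GGGAATTTCCC, which holds 2 overlapping NF-kB matches in each gene. Cxcl10 held 3 NF-kB matches, 2 of them overlapping, and 1 interferon element. In the window of Cxcl9 neither motif was found. The NF-kB consensus occurred in 6.34% and the interferon element in 2.63% of the 32851 windows of the same length in the table. Of the remaining genes, Cxcl14 held 1 interferon element and Cxcl12 and Cxcl13 held neither motif. Of the other motifs searched, the interferon-gamma site (TTC, any 3 bases, GAA) was present in Cxcl14 (6.27% of windows), and TATAAA in Cxcl9 and Cxcl13 (9.95%). A match describes letters only.

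Each gene had its own cellular pattern, as the map of levels by class shows. Among the 3 large classes, Cxcl9 and Cxcl12 had their highest level in endothelial cells and Cxcl2, Cxcl10 and Cxcl16 in macrophages, in both libraries. Cxcl14 was highest in fibroblasts. Cxcl1 and Cxcl13 were highest in macrophages in ND and in fibroblasts in HFD. Levels are compared within a gene across classes, since lengths and capture differ between genes.

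**Figure D1:**
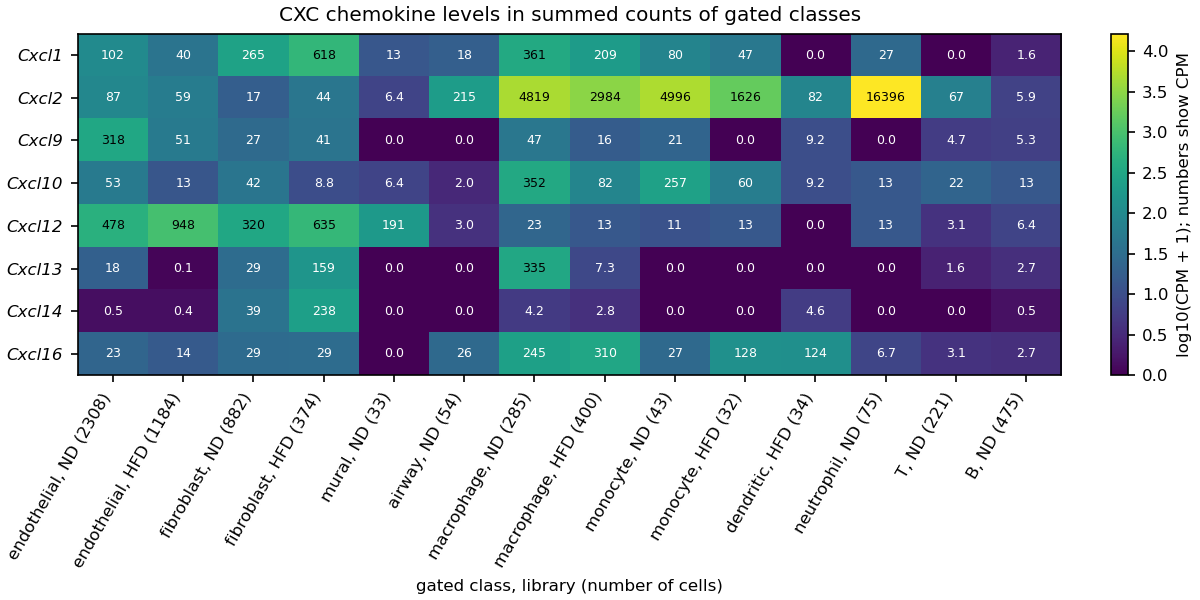
Levels of the 8 CXC chemokines (rows) in each gated class of each library with at least 30 cells (columns, cell number in brackets), as CPM in the printed numbers and log10(CPM + 1) in the colour. Cxcl2 reached 16396 CPM in ND neutrophils, and among the groups drawn Cxcl14 lay above 5 CPM only in fibroblasts.

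Cxcl1 was higher in HFD fibroblasts and lower in HFD endothelial cells. In fibroblasts its level was 265 CPM in ND (95% interval 248 to 283) and 618 CPM in HFD (581 to 657), 2.33-fold higher. UMIs of the gene were in 197 of 882 ND and 133 of 374 HFD fibroblasts. In the Pi16 subset, cells that carry adventitial progenitor markers, it was 291 and 611 CPM, and in fibroblasts of no subset 255 and 648 CPM. In endothelial cells Cxcl1 was 102 CPM in ND (96.0 to 108) and 40.4 CPM in HFD (35.9 to 45.4), 2.52-fold lower. In macrophages it was 361 and 209 CPM, 1.73-fold lower. B cells, T cells and NK cells held between 0 and 3 UMIs of Cxcl1 in each library.

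Cxcl2 marked myeloid cells in both libraries. Neutrophils held 16396 CPM in ND and 9295 CPM in HFD, the second from only 10 cells. Macrophages held 4819 CPM in ND (4705 to 4934) and 2984 CPM in HFD (2922 to 3048), a log2 difference of -0.69 that was -1.97 with at most 10% mitochondrial UMIs. Within macrophages the resident type was at 4050 and 4002 CPM, so the diets differed there by a log2 of -0.02 (-0.08 to 0.05). HFD foam-type macrophages, 137 cells, held 1874 CPM (1803 to 1947), and the ND library had only 4 such cells. Macrophages of neither type held 7361 and 4144 CPM. The level in all macrophages therefore covered subsets that differed in level and whose cell numbers differed between the libraries. Fibroblasts held 17.1 and 44.2 CPM, and luminal endothelial cells, marked by Vwf, Vcam1 and Cytl1, held 239 and 79.6 CPM. In the ND luminal cells 104 of the 352 UMIs came from 1 cell. Without the highest cell of each library the luminal levels were 172 and 57.5 CPM, and the arteriolar log2 difference turned from 0.17 to -0.74.

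Among the large classes Cxcl9 was highest in endothelial cells, and it was lower in HFD in each main endothelial subset. The 5 HFD cells with the most Cxcl9 were gated as fibroblast, macrophage or mixed. Capillary cells, marked by Gpihbp1, Cd36, Car4 and Timp4, held 418 CPM in ND (403 to 434) and 62.7 CPM in HFD (55.5 to 70.5), 6.67-fold lower. The Cxcl9-positive capillary cells were 940 of 1695 in ND and 172 of 812 in HFD. Arteriolar cells held 280 and 46.1 CPM, while luminal cells held 29 UMIs in ND (19.7 CPM) and 1 UMI in HFD (1.59 CPM), a log2 difference of -3.63 (-8.98 to -1.04). Cxcl9-positive capillary cells also held more Iigp1, an interferon-induced GTPase, than those without it, 876 against 681 CPM in ND and 396 against 247 CPM in HFD. Over all endothelial cells the levels were 318 and 51.0 CPM, a log2 difference of -2.64 (-2.80 to -2.48). After each cell was thinned to 1000 UMIs, 21.7% of ND and 3.97% of HFD endothelial cells held the gene, against 46.9% and 19.5% unthinned. Fibroblast Cxcl9, 27.5 and 41.3 CPM, rested on single cells: 69 of 95 ND UMIs and 64 of 70 HFD UMIs came from 1 cell each. Without those cells they were 7.53 and 3.55 CPM, and the direction turned. In macrophages Cxcl9 was 46.7 and 16.0 CPM, from 15 and 9 cells.

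Cxcl10 was lower in HFD in macrophages and endothelial cells. Macrophages held 352 CPM in ND (321 to 384) and 81.7 CPM in HFD (71.6 to 92.8), 4.30-fold lower, a log2 difference of -2.11 that was -3.80 with at most 10% mitochondrial UMIs. Resident macrophages held 429 and 159 CPM. Foam-type HFD macrophages, 137 cells against 4 in ND, held 12.1 CPM (7.02 to 19.3), below the resident cells of the same library. The log2 difference was -1.44 in resident macrophages and -0.64, within 2-fold, in macrophages of neither type. The level in all macrophages thus covered subsets that differed in level and whose cell numbers differed between the libraries. Endothelial cells held 53.2 and 12.7 CPM, with 43.5 and 8.77 CPM in arteriolar, 54.1 and 14.0 CPM in capillary and 61.9 and 15.9 CPM in luminal cells. The intervals of these subsets overlapped within each library. Without the highest cell of each library the luminal levels were 36.7 and 8.04 CPM. Adipocyte-gated cells, 22 in ND and 8 in HFD, held 542 and 537 CPM of Cxcl10 and 573 and 475 CPM of Cxcl1. The ND fibroblast value of 42.2 CPM came largely from 1 cell with 90 of the 146 UMIs, and the same cell held the 69 UMIs of Cxcl9. In HFD B cells all 36 UMIs came from 1 cell.

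The levels of Cxcl12 were higher in HFD in endothelial cells and fibroblasts, by just under 2-fold in each. Endothelial cells held 478 CPM in ND (465 to 491) and 948 CPM in HFD (926 to 971), a log2 difference of 0.99 (0.94 to 1.04). Arteriolar cells held 752 and 1412 CPM, capillary cells 496 and 893 CPM and luminal cells 154 and 202 CPM, an order that was the same in both libraries. Fibroblasts held 320 and 635 CPM. The difference was uneven among them: Pi16 fibroblasts held 158 and 436 CPM, 2.76-fold higher, whereas Inmt fibroblasts held 763 and 784 CPM with overlapping intervals. Fibroblasts of no subset held 458 and 1094 CPM. As a background, B cells held 6.41 CPM in ND (12 UMIs) and 0 of 99893 UMIs in HFD, where 3 UMIs would be 30.0 CPM. Barcodes with under 200 genes held 56.2 and 47.0 CPM. UMIs were in 63.1% of ND and 86.7% of HFD endothelial cells, and in 31.7% and 51.2% after thinning.

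Cxcl13 rested on few cells, so its diet differences describe those cells. The 10 kept cells with the most Cxcl13 held 89.7% of its 1505 ND UMIs and 67.1% of its 319 HFD UMIs. Macrophages held 474 UMIs in 12 ND cells (335 CPM) and 21 UMIs in 6 HFD cells (7.30 CPM). With at least 3 different macrophage markers required, 5 ND and 21 HFD UMIs were left and the log2 difference turned from -5.52 to 0.94. 5 ND macrophages held at least 10 UMIs, together 459, with single values of 163, 153, 97, 32 and 14. Each of them also held Fcna, from 33 to 227 UMIs, and C1qa, from 54 to 114 UMIs, but no Fcgr1 or Ms4a7. Fcna encodes ficolin A, a macrophage lectin. Over all macrophages Fcna was at 566 CPM in ND and 106 CPM in HFD, in 83 of 285 and 96 of 400 cells. The ND value is not separate from these 5 cells, which held 73, 227, 54, 33 and 88 of its 800 UMIs. A further 4 ND cells, all mixed, held 704 UMIs, 447 of them in 1 cell. All 4 held Wt1, a transcription factor of mesothelial cells, with 14, 15, 7 and 1 UMIs. The cell with 1 UMI of Wt1 had entered the endothelial and fibroblast classes only and held 8 UMIs of Pi16. Doublet scores of 3 of the 4 mixed cells lay in the top 6% of the library. The ND endothelial value of 199 UMIs (18.3 CPM) held 187 UMIs from 1 luminal-gated cell, which also held 46 UMIs of C1qa and had a doublet score in that top 6%, and HFD endothelial cells held 1 UMI. Luminal cells held these 187 UMIs in ND and none in HFD, at least 26.6-fold lower against 3 UMIs in the HFD library. Fcna and Wt1 were chosen after their values were seen.

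In fibroblasts Cxcl13 went the other way, 29.5 CPM in ND (24.1 to 35.8, 30 cells) and 159 CPM in HFD (140 to 179, 32 cells), 5.38-fold higher. 10 HFD fibroblasts held at least 10 UMIs, together 206, the highest with 77, and 4 of the 10 also held Wt1. Without the highest cell of each library the levels were 25.5 and 113 CPM. Pi16 fibroblasts held 40.1 and 90.4 CPM and fibroblasts of no subset 8.43 and 304 CPM, the latter from 6 and 9 cells.

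Cxcl14 was found mainly in a small number of fibroblasts. Among the other classes the levels over 5 CPM were those of mixed cells (16.1 and 25.1 CPM) and of HFD adipocyte-gated cells (20.7 CPM from 2 UMIs in 1 cell). Fibroblasts held 39.3 CPM in ND (33.0 to 46.5, 26 cells) and 238 CPM in HFD (215 to 262, 37 cells), 6.04-fold higher. Without the 1% of fibroblasts with the most Cxcl14 the log2 difference was 3.82 in place of 2.60. Pi16 fibroblasts held 3 UMIs in ND and 22 UMIs in HFD, 1.74 and 19.7 CPM. Inmt fibroblasts held 40.3 and 571 CPM, from 3 and 5 cells. Fibroblasts of no subset held 102 and 722 CPM, from 21 of 355 and 27 of 121 cells, and so held 121 of the 136 ND and 330 of the 403 HFD UMIs of the class. The highest cells held 27 UMIs in ND and 48 UMIs in HFD fibroblasts. Endothelial cells, used here as a background, held 5 and 3 UMIs.

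Cxcl16 was a macrophage gene in both libraries, at 245 CPM in ND (220 to 273) and 310 CPM in HFD (290 to 331). The log2 difference was 0.34, and 0.056 with cells thinned to 1000 UMIs and 0.84 with at most 10% mitochondrial UMIs. Foam-type HFD macrophages held 450 CPM (415 to 486, 127 of 137 cells), above resident HFD macrophages at 114 CPM (94.0 to 138). Resident ND macrophages held 161 CPM and macrophages of neither type 498 CPM in ND and 288 CPM in HFD. Resident cells and those of neither type thus had lower values in HFD, while all macrophages together had a higher one. The 4 ND foam-type cells held 15 UMIs, 199 CPM (112 to 329). Dendritic cells held 155 and 124 CPM. Among endothelial cells Cxcl16 was highest in luminal cells, 95.2 and 81.2 CPM, against 9.11 and 7.24 CPM in capillary and 7.41 and 1.65 CPM in arteriolar cells.

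**Figure D2:**
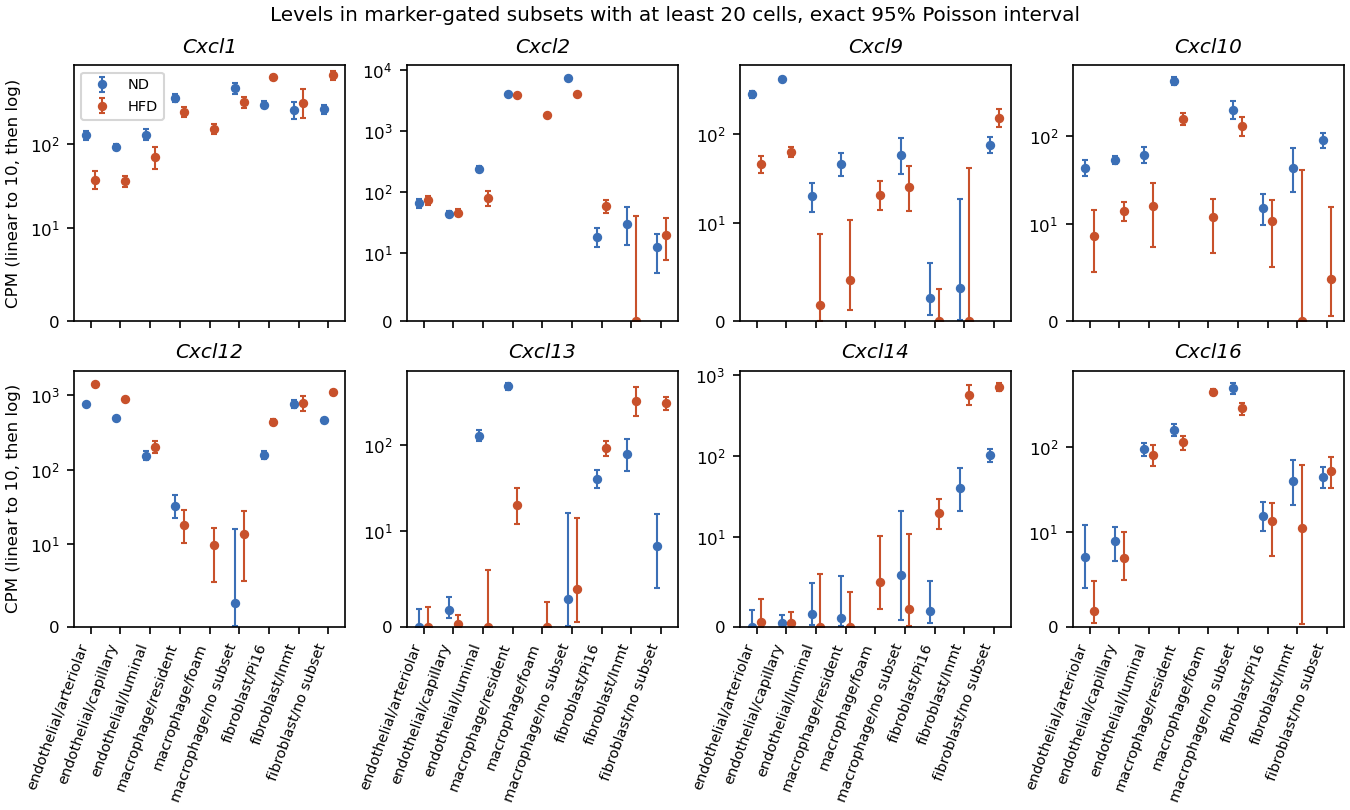
Levels of each gene (CPM, linear to 10 and logarithmic above) in marker-gated subsets with at least 20 cells, ND blue and HFD orange, with exact 95% Poisson intervals. Cxcl9 and Cxcl12 were low in luminal against arteriolar and capillary endothelial cells, and Cxcl16 was high there.

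Between the diets, a difference over 2-fold is used as a descriptive call where the libraries had 20 or more UMIs of the gene between them. In endothelial cells 4 of the 7 genes with 20 UMIs were lower in HFD (Cxcl1, Cxcl9, Cxcl10 and Cxcl13) and none was higher, beside 8.32% lower and 2.53% higher among 12227 genes. The Cxcl13 call rested on 1 luminal ND cell with 187 of the 199 UMIs, and the count was 3 with the top 6% of doublet scores left out. In fibroblasts 4 of 8 were higher (Cxcl1, Cxcl2, Cxcl13 and Cxcl14) beside 2% of 10540 genes, and 1 (Cxcl10) was lower beside 8.03%. In macrophages 3 of 7 were lower (Cxcl9, Cxcl10 and Cxcl13) beside 8.09% of 8999 genes, and none was higher beside 4.81%. The macrophage count was 2 with at least 3 markers, where the Cxcl13 ratio reversed, 2 with mixed cells kept and 5 with at most 10% mitochondrial UMIs. The median log2 difference of genes with 10 UMIs in each library was -0.16 in endothelial cells, -0.14 in fibroblasts and -0.15 in macrophages. Cxcl12 missed the call in endothelial cells and fibroblasts at 1.98-fold and 1.99-fold. In Pi16 fibroblasts 5 of 7 genes were higher beside 2.2% of 9141 genes, including Cxcl12, and none was lower beside 6.33%. In fibroblasts of no subset 5 of 8 were higher beside 3.2% of 7875 genes and 1 was lower beside 11.7%. The 5 included Cxcl9, whose log2 difference turned from 1.01 to -0.42 without the highest cell of each library. The lower gene was Cxcl10, with 90 UMIs in 1 ND cell and 17 in the other ND cells of the group. In resident macrophages 3 of 7 were lower beside 6.09% of 7165 genes and none higher beside 1.95%. The 3 were Cxcl9, Cxcl10 and Cxcl13. Of these, Cxcl9 had 18 ND UMIs in 1 cell and 28 in the other ND cells, and Cxcl13 rested on few ND cells, 1 of them with 163 UMIs. In macrophages of neither type 1 of 5 was lower beside 5.79% of 4508 genes and none higher beside 8.23%. In capillary cells 3 of 6 were lower beside 7.91% of 10954 genes and none higher beside 3.66%. In arteriolar cells 3 of 5 were lower beside 5.98% of 9013 genes and none higher beside 2.65%. In luminal cells 4 of 7 were lower beside 6.62% of 8445 genes and none higher beside 2.76%, and 1 of the 4 was Cxcl13, with all its 187 UMIs in 1 cell. In monocytes, 43 and 32 cells, 2 of 4 were lower beside 9.27% of 1985 genes and 1 was higher beside 5.04%. Over all kept cells 2 of 8 were higher (Cxcl14 and Cxcl16) beside 2.68% of 15101 genes and 2 were lower (Cxcl9 and Cxcl13) beside 12.4%.

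**Figure D3:**
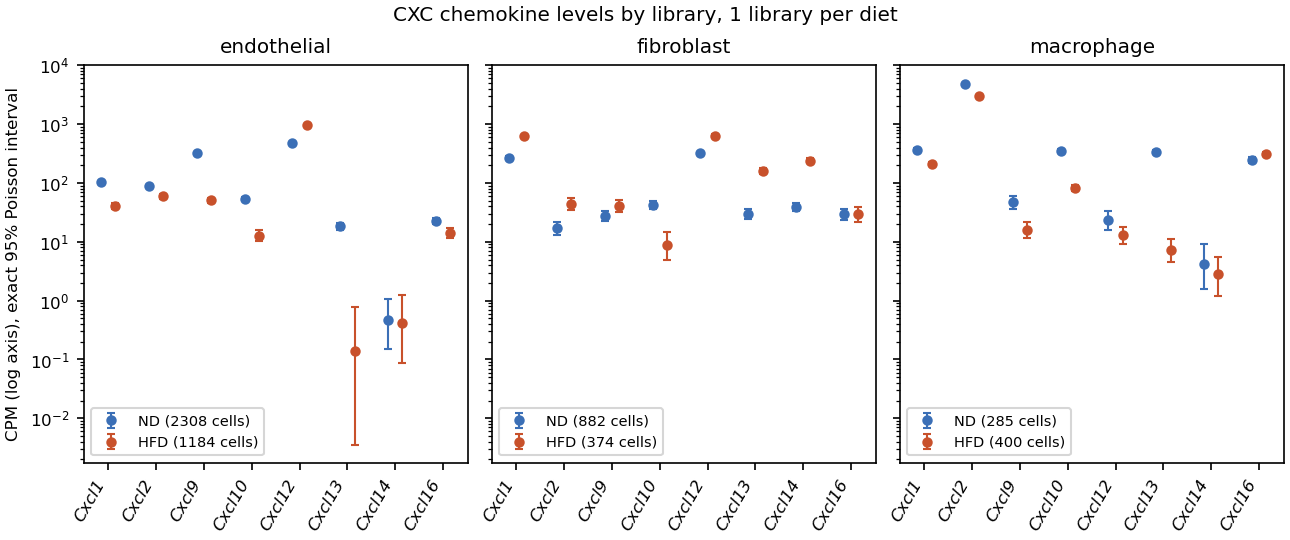
Levels of each gene (CPM, log axis) in endothelial cells, fibroblasts and macrophages, ND blue and HFD orange, 1 library per diet, with exact 95% Poisson intervals. Cxcl9 differed from 318 to 51.0 CPM in endothelial cells, and Cxcl14 from 39.3 to 238 CPM in fibroblasts.

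**Figure D4:**
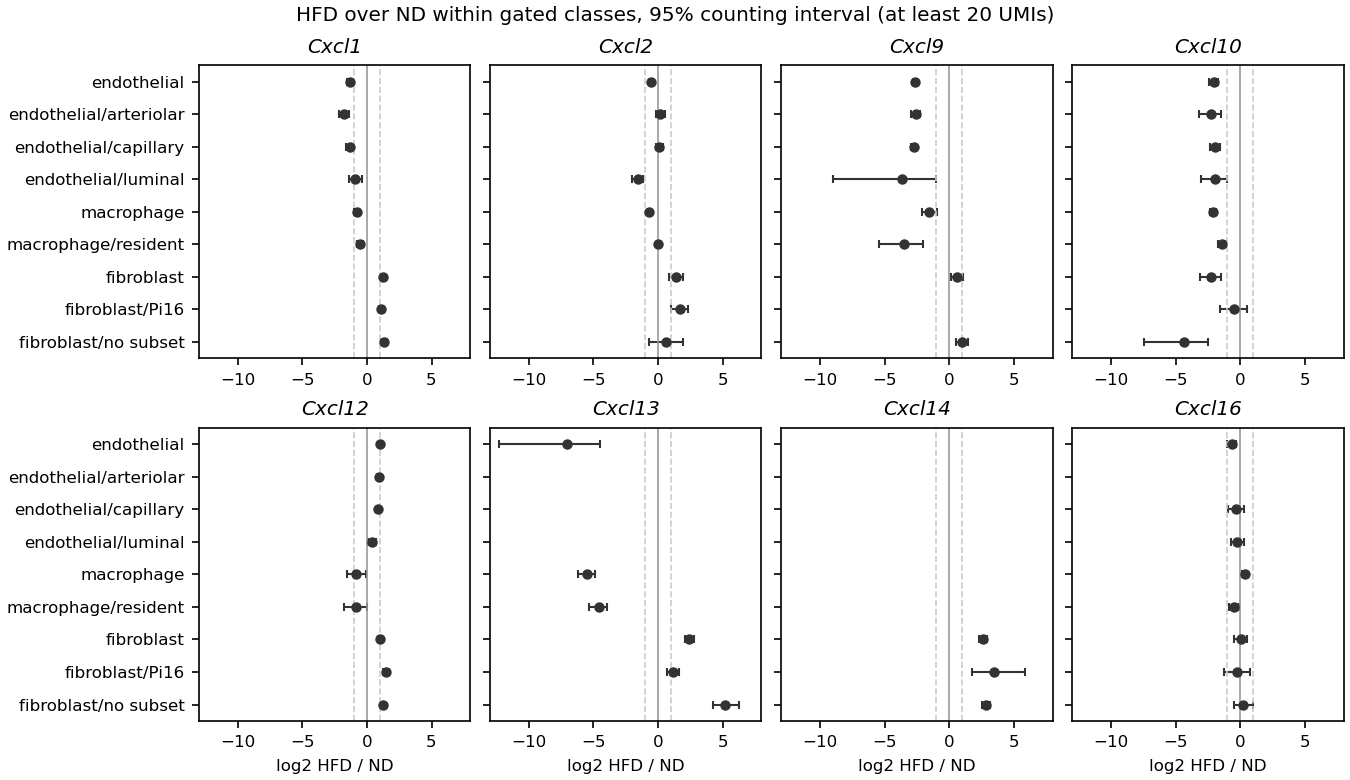
Log2 ratio of HFD over ND with its 95% counting interval for each gene in 9 gated groups with at least 20 UMIs. Solid lines mark no difference and dashed lines 2-fold. Cxcl1 lay left of the line in endothelial cells (-1.33) and right of it in fibroblasts (1.22).

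Detection of Cxcl1 and Cxcl2 went together in macrophages. With Cxcl1 present, 96.3% of the ND and 97.7% of the HFD macrophages held Cxcl2, and without it 70.4% and 58.6%. After thinning the shares were 90.9% and 92.0% against 62.5% and 51.7%. In endothelial cells Cxcl10 was detected in 13.2% of ND cells with Cxcl9 and 3.10% of those without it, but cells with Cxcl9 were deeper (medians of 4180 and 2986 UMIs) and after thinning the shares were 4.20% and 2.78% with overlapping intervals. Cells that held Cxcl1 among fibroblasts had more Ccl2, a monocyte chemokine, at 433 against 50.6 CPM in ND and 281 against 55.8 CPM in HFD. They had more Il6, 124 against 47.4 CPM in ND and 514 against 25.4 CPM in HFD, and more Egr1, an immediate early gene, at 4012 against 1875 CPM in ND and 3383 against 1028 CPM in HFD. The arches were dissociated with warm enzymes before capture, and the part of that step in these levels was not tested. Macrophages with Cxcl10 had more Isg15, an interferon-induced ubiquitin-like protein, 164 against 24.8 CPM in ND and 61.7 against 20.8 CPM in HFD.

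Receptor RNA was found in the cells known to use these ligands. The Cxcl12 scavenger Ackr3 was at 830 and 721 CPM in fibroblasts and at 182 and 66.2 CPM in endothelial cells, 1.46 lower on the log2 scale in HFD. Cxcr4 was at 190 and 194 CPM in macrophages. ND neutrophils held 424 CPM of Cxcr2, ND T cells held 46.6 CPM of Cxcr3 and 104 CPM of Cxcr6, and ND B cells held 103 CPM of Cxcr5, while the HFD library had 10, 24 and 13 of these cells. The shedding proteases Adam10 and Adam17 were at 96.9 and 75.8 CPM and at 106 and 85.2 CPM in macrophages. Of the other CXC ligands, Pf4 (platelet factor 4) was at 2565 and 752 CPM in all macrophages, at 3312 and 1757 CPM in resident macrophages, which is within 2-fold, and at 132 CPM in HFD foam-type macrophages.

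Lists of related genes were counted the same way, and the shares over all genes in each group are those given above. Of 8 interferon genes, 5 were lower in HFD endothelial cells beside 8.32% of all genes with 20 UMIs, and 6 in capillary cells beside 7.91%. In macrophages 5 of 7 were lower beside 8.09%, and in fibroblasts 1 of 7 beside 8.03%. Arteriolar cells had 5 of 8 lower beside 5.98% and resident macrophages 5 of 7 beside 6.09%. In luminal cells 2 of 8 were lower beside 6.62% and 1 was higher beside 2.76%. In macrophages of neither type 1 of 5 was lower beside 5.79% and 1 was higher beside 8.23%. Iigp1 was at 667 and 253 CPM in endothelial cells. Of 8 NF-kB and cytokine genes none was called in endothelial cells, 4 were lower in macrophages (Nfkbiz, Icam1, Il6 and Ccl2), and Il6 was higher in fibroblasts at 67.1 and 219 CPM. In resident macrophages none of these 8 was lower and 1 was higher (Il1b, 46.3 and 117 CPM), and in macrophages of neither type 3 were lower (Nfkbiz, Icam1 and Il6). Of 7 immediate early genes none was called in endothelial cells or fibroblasts and 2 were lower in all macrophages (Egr1 and Atf3), while none of the 7 was called in resident macrophages or in those of neither type. In endothelial cells the median log2 difference was -1.09 over the interferon genes and -0.40 over the immediate early genes, beside -0.18 over all genes with 20 UMIs.

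The barcodes removed for over 30% mitochondrial UMIs, 2299 in ND and 7215 in HFD, hold further counts of the same libraries. There Cxcl9 was 114 and 24.3 CPM, Cxcl10 was 28.4 and 13.2 CPM, Cxcl12 was 197 and 408 CPM and Cxcl14 was 5.92 and 18.7 CPM. Cxcl13 was 7.70 and 2.73 CPM. These 5 had the same direction as over all kept cells. Cxcl1, 54.8 and 45.8 CPM, Cxcl2, 797 and 605 CPM, and Cxcl16, 27.0 and 23.5 CPM, had the opposite direction. Over all kept cells these genes were higher in HFD, by a log2 of 0.30 for Cxcl1, 0.51 for Cxcl2 and 1.14 for Cxcl16. Macrophages were 5.26% of the ND and 14.6% of the HFD kept cells, and the removed barcodes were not gated. The part of the cell mix in these directions was not tested. In the removed barcodes the interval of the Cxcl16 difference held 0.

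Patterns over the 14 groups with at least 30 cells were compared by the correlation of log2(CPM + 10) among 10705 genes, as a description. The 3 most alike genes were Ccl3, Cd14 and Ptafr for Cxcl2 (r = 0.98, 0.97 and 0.95), Gbp3, Ifit2 and Irgm1 for Cxcl9 (0.93, 0.90 and 0.89), Col8a1, Pcdh19 and Angptl4 for Cxcl12 (0.98, 0.97 and 0.97), and Bmper, Ptx3 and 6030408B16Rik for Cxcl14 (0.98, 0.98 and 0.97). For Cxcl1 they were Ctbs, Sulf2 and Slc36a4, for Cxcl10 Smpdl3b, Cx3cr1 and Oasl1, for Cxcl13 Tslp, Plau and Ang, and for Cxcl16 Lamtor1, P2ry6 and Gusb. Groups of 1 library share its depth and free RNA.

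The number of cells behind each gene differed widely. Cxcl12 was in 2324 ND and 1659 HFD cells, of which the 100 highest held 23.2% and 26.1% of its UMIs. Cxcl14 was in 50 and 63 cells and Cxcl13 in 74 and 47 cells.

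**Figure D5:**
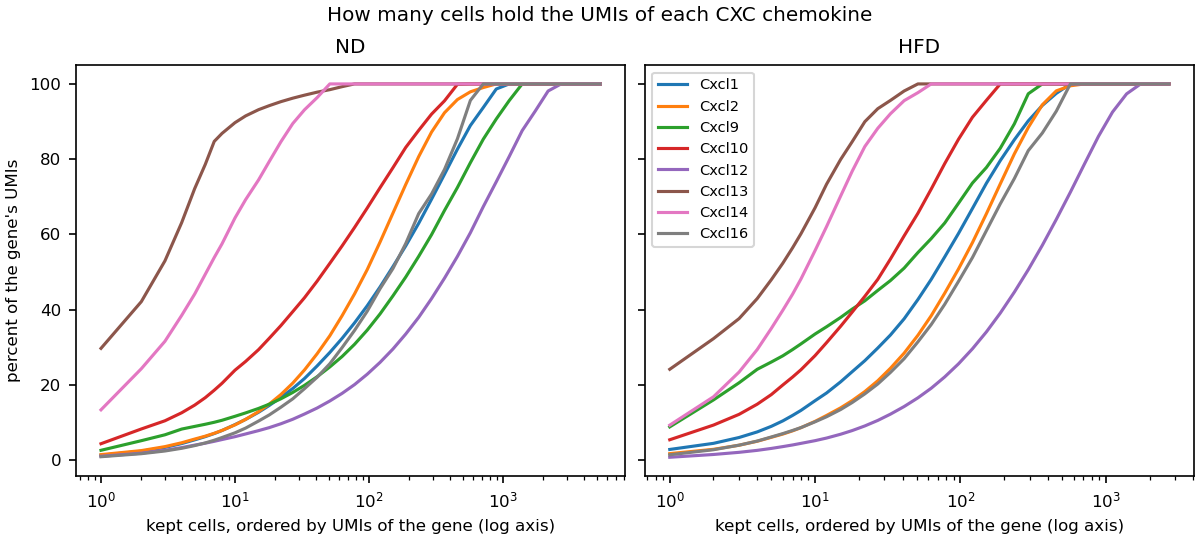
Percent of each gene's UMIs (vertical axis) held by the kept cells with the most UMIs of it (horizontal axis, log scale), for each library. For Cxcl13 the single highest ND cell held 29.7% and for Cxcl12 1.02%.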

How the data were processed

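Single-cell gene counts were measured in 1 ND and 1 HFD library of 10x Genomics type. The deposited counts are UMI counts per gene and barcode that the authors made with Cell Ranger (3.0.1 in the file headers) on mm10, not normalised, for barcodes before the quality filter. Positions of genes were taken from GENCODE vM21, which need not be the annotation of the counts. Cells were filtered by the limits in the methods of the study. Classes were gated by marker UMIs (at least 2 markers and 3 UMIs); mixed cells were set aside and no doublets were removed, doublet scores (scanpy 1.11.5) being an alternative. UMIs were summed per class and library, with no p-values since cells are not replicates. Ratios have exact conditional binomial intervals and shares have Clopper-Pearson intervals (95%). Fold bounds use 3 UMIs. The ratio intervals were tested on simulated Poisson counts, the model they assume, and the ranking of alike genes on a planted gene. Neither simulation held the spread between cells or animals, so they check the code only. The genes, lists and gates were chosen with earlier results of these data known. Aggregated tables were not used. Alternatives changed the mitochondrial limit, markers, mixed cells, doublet scores, scaling, thinning and the highest cells. Python 3.11.15, numpy 2.4.6, scipy 1.17.1 and pandas 2.3.3 were used. Named genes were the 8 chemokines, all genes of fixed lists and the 3 most alike genes of each, plus those said to be chosen after their values were seen.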

Additional observations from a re-analysis of the deposited data

Results flagged for a closer look

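Opposite directions between classes, which were not tested, drew attention to a pair of genes. The log2 ratio of HFD over ND of Cxcl1 was -1.33 in endothelial cells and 1.22 in fibroblasts. That of Cxcl13 was -7.02 in endothelial cells, 2.43 in fibroblasts and -5.52 in macrophages, where the endothelial value rests on 187 ND UMIs in 1 cell and the macrophage value on 5 ND cells with 459 of 474 UMIs. Signal was also seen in barcodes outside the main comparison: in HFD barcodes over 30% mitochondrial, Cxcl12 stood at 408 CPM, against 197 CPM in ND, and Cxcl14 at 18.7 CPM, against 5.92 CPM in ND.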

How the results depend on the processing

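The diet ratios were recomputed under 86 alternatives of a gene and a setting, of which 48 stayed within the counting interval, 37 lay outside it in the same direction and 1 reversed. With at most 10% mitochondrial UMIs the log2 ratios that moved were Cxcl1 1.47, Cxcl2 -1.97, Cxcl9 -3.15, Cxcl10 -3.80, Cxcl12 0.84 and Cxcl16 0.84. With at most 20% the log2 ratios that moved were Cxcl1 1.45, Cxcl2 -0.88, Cxcl10 -2.95, Cxcl14 2.28 and Cxcl16 0.68. With median-of-ratios scaling the log2 ratios that moved were Cxcl1 1.36, Cxcl2 -0.54, Cxcl9 -2.48 and Cxcl12 1.15. Without mitochondrial, haemoglobin and ribosomal genes the log2 ratios that moved were Cxcl1 1.40 and Cxcl12 1.12. As a mean of cells the log2 ratios that moved were Cxcl1 1.40, Cxcl2 -0.57, Cxcl10 -1.72, Cxcl13 -4.03 and Cxcl16 0.10. With cells thinned to 1000 UMIs the log2 ratios that moved were Cxcl1 1.59, Cxcl2 -0.53, Cxcl10 -1.45, Cxcl12 0.93, Cxcl13 -3.58 and Cxcl16 0.056. Without the 1% of cells with the most UMIs the log2 ratios that moved were Cxcl1 1.42, Cxcl12 1.08 and Cxcl14 3.82. With at least 3 markers the log2 ratios that moved were Cxcl2 -0.64, Cxcl13 0.94 and Cxcl14 1.99. With mixed cells kept the log2 ratios that moved were Cxcl2 -0.56, Cxcl9 -2.37, Cxcl10 -1.69 and Cxcl14 1.95. After thinning, the shares of cells with a UMI that moved were Cxcl1 12.2% (ND) and 24.6% (HFD), Cxcl2 66.9% (ND) and 56.8% (HFD), Cxcl9 21.7% (ND) and 3.97% (HFD), Cxcl10 17.6% (ND) and 7.5% (HFD), Cxcl12 31.7% (ND) and 51.2% (HFD), Cxcl13 1.76% (ND), Cxcl14 6.68% (HFD), Cxcl16 19.4% (ND) and 21% (HFD), each in the class of its ratio. The macrophage count of genes over 2-fold was 5 in place of 3 with at most 10% mitochondrial UMIs and 2 with at least 3 markers or with mixed cells kept. The Cxcl13 macrophage ratio reversed with 3 markers, which left 5 ND and 21 HFD UMIs, since its 5 high ND cells hold only C1qa and Adgre1 of the macrophage markers. With the 10% limit Cxcl13 and Cxcl14 gave no ratio. Leaving out the highest cell, an alternative chosen after seeing the data, kept each of the 8 ratios within its interval. With 1 library per diet no replicate could be left out. No paired analysis was possible because each diet has 1 library. Intervals cover counting error only, and Cxcl13, Cxcl14 and the subsets with few cells are limited by cell number.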
